A study of Rattus norvegicus with 8 samples.

Results

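The set described here holds 10 rat genes that supply or recycle thiol antioxidants, or that are induced beside those genes. They are the cystine transporter Slc7a11, the glutathione enzymes Gclc, Gclm, Gss and Gsr, the thioredoxin pair Txnrd1 and Txn1, and Srxn1, Osgin1 and Hmox1. They were chosen by name, with earlier results of these data known. They are 10 of 36181 genes or names on the array, and were measured by 13 probes on 23 spots of each array. Liver RNA came from male Wistar rats on 1-colour Agilent arrays. The STL group (rats 5 to 8) was gavaged daily with butyrate-containing structured lipids at 1.65 g/kg body weight, and the control group (rats 1 to 4) was given maltodextrin of equal energy at 3.0 g/kg. Both groups were put through the "resistant hepatocyte" protocol, a chemical model of liver cancer development, from 2 weeks after the start of treatment, with the rats killed 8 weeks after that start. The labels give no liver without the protocol, so the comparison is between 2 treatments of livers that all underwent it, and each liver is whole tissue. In whole tissue, fewer cells of a type and less RNA per cell cannot be told apart.

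Glutathione is the main small thiol of hepatocytes, and its supply is commonly limited by cysteine. The transporter encoded by Slc7a11 brings in cystine in exchange for glutamate, glutamate-cysteine ligase and glutathione synthetase build the tripeptide, and glutathione reductase and the thioredoxin system return oxidised thiols to the reduced form with NADPH. Most of the 10 genes are known targets of NRF2 (encoded by Nfe2l2), a transcription factor that is held down by KEAP1, pairs with small MAF proteins and binds antioxidant response elements. In rat liver carcinogenesis, preneoplastic lesions are known to overexpress several enzymes of this kind, with Gstp1 and Ggt1 as their classical markers.

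All values are log2 processed signal relative to the upper quartile (the 75th percentile) of the same array, called normalised signal from here on, and a difference is STL minus control on that scale. That quartile was 304.1 to 604.9 signal units, and the share of probes well above background ranged from 54.17% to 62.85% per array. Control 1 and control 2 were nearly alike: their arrays differed by 1.05 times the noise between repeated spots, where the other pairs of arrays differed by 2.09 to 7.19 times, and they were counted as 1 sample, which left 4 STL and 3 control samples. The authors' value table and the scanner files differ in their labels within groups: for 6 of the table's 8 columns the values were those of a different array from the same treatment, and for 0 columns from the other treatment. Which rat of a group an array belongs to is therefore not settled, and arrays are named here by the labels of the scanner files. Hepatocyte markers were bright on every array: albumin (Alb) lay at 8.74 to 9.43 in STL livers and 8.34 to 8.70 in control samples.

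All 10 genes had a lower mean in STL livers than in control livers, by 3.60 on the log2 scale for Slc7a11, 1.40 for Srxn1, and 0.12 to 0.72 for the others. No gene of the set passed the threshold: 0 of 10 had a limma adjusted p under 0.05, against 0.00457% of the 21871 genes tested (1 gene, higher in STL livers). At an unadjusted p under 0.05, 4 of 10 were lower (Slc7a11, Srxn1, Txnrd1 and Gclm), against 7.38% of all genes. The 4 STL samples lay below every control sample for 2 genes, Slc7a11 and Srxn1, against 5.62% of all genes, and groups were apart in either direction for 16.8% of all genes. The median difference of the 10 genes was -0.34, that of all genes tested 0.064, and 42.0% of all genes were lower in STL livers. Because the set was chosen with earlier results of these data known, the shares of all genes are a description beside it and not a test.

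**Figure D1:**
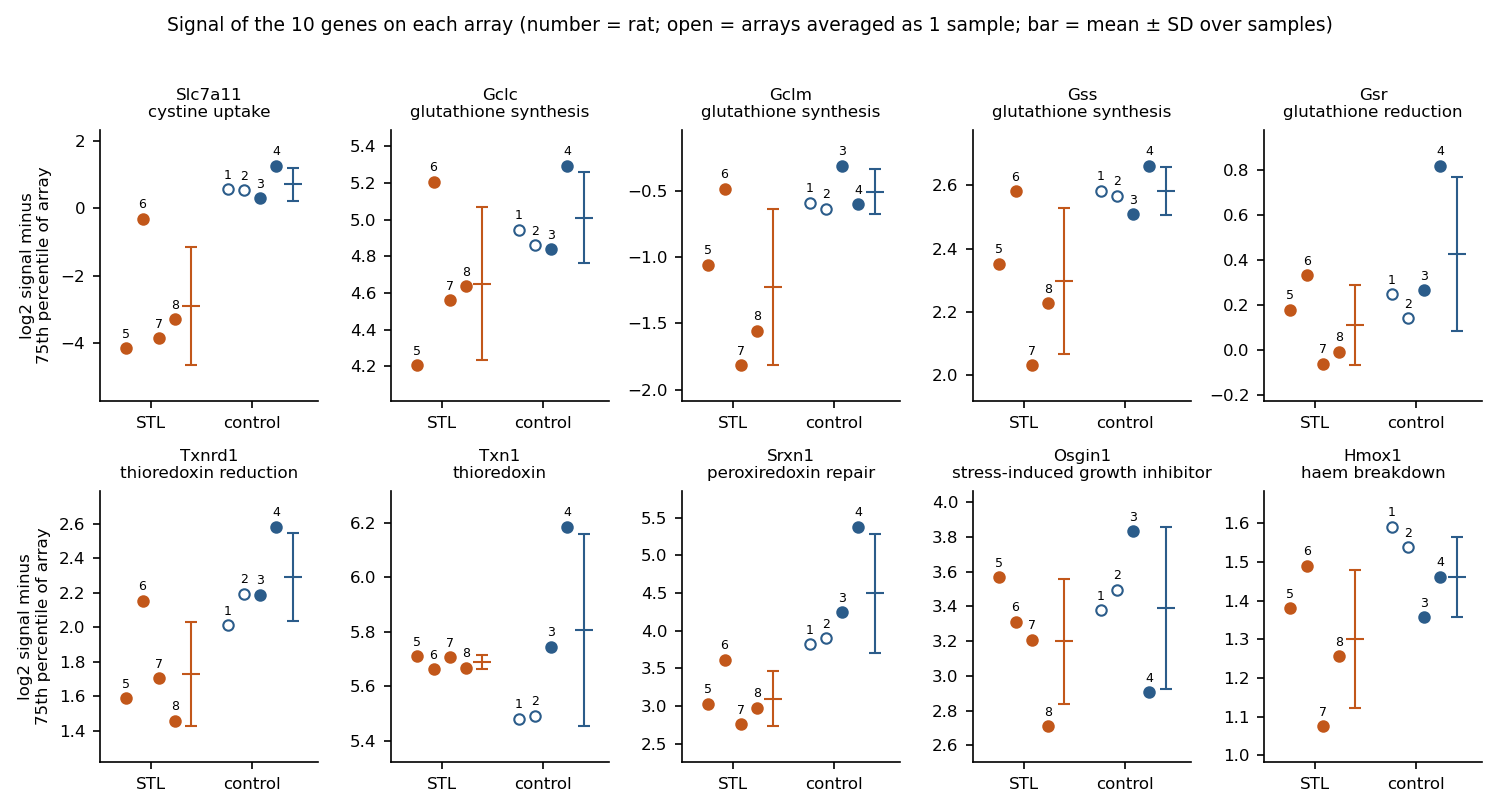
Normalised log2 signal (y axis) of the 10 genes on each of the 8 arrays, 1 point per array, with STL livers left of control livers in each panel. The groups are fully apart for Slc7a11 and Srxn1, and for Slc7a11 the array of STL 6, at -0.32, stands far above the other STL arrays, at -4.14 to -3.28.

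Slc7a11 encodes the light chain of the cystine/glutamate exchanger. Its normalised signal was -4.14, -0.32, -3.85 and -3.28 in STL 5, 6, 7 and 8, against 0.57, 0.53, 0.30 and 1.25 in control 1, 2, 3 and 4. Before normalisation those were processed signals of 25.8, 393, 21.1 and 47.3 in STL livers, against 805, 673, 645 and 1443 in control livers. Every STL array was below every control array, and STL 6 stood far above the other STL arrays. The mean was -2.90 ± 1.76 in STL livers (SD, n = 4) and 0.70 ± 0.50 in control livers (SD, n = 3). The difference was -3.60 (SE 0.82, 95% interval -5.46 to -1.73), a signal 12.1-fold lower in STL livers (interval 3.32 to 44.1), with an unadjusted limma p of 0.00191 and an adjusted p of 0.168. Of the 21871 genes, 10 had a difference at or below that of Slc7a11, and 0.320% had a larger SD among the STL livers. Without STL 6 the difference was -4.46 and passed (limma adjusted p = 0.0039), where 0.123% of all genes were called lower. STL 6 was the highest STL liver for Slc7a11, so leaving it out enlarges the difference by construction. No conclusion is drawn from that pass. With any other sample left out the limma adjusted p was 0.108 to 0.364. The difference also passed with array weights (-3.33, limma adjusted p = 0.0368), where 2.84% of all genes were called lower. Of 19 alternatives, these 2 were the only ones in which it passed. With normexp background correction, which adds an offset of 50 signal units, the difference was -2.19. That offset is larger than the processed signals of STL 5, 7 and 8. The size of the fold therefore depends on how low signals are treated.

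The signal of Slc7a11 came from a probe in the long 3′ untranslated region, at chr2:139241468-139241527 on the minus strand (rn4). Another probe sits at the very end of the coding sequence, at chr2:139248397-139248456 on the minus strand, and begins 6929 bases before the first one both in the transcript and in the genome. It is shown because it reads the same transcript elsewhere and gave no measurable signal, and capitals mark the stop codon that closes 19 open codons.
Slc7a11 coding-end probe: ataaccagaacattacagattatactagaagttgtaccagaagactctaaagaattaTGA
This probe was well above background on 0 of 8 arrays, with processed signals of 4.15, 3.33, 3.59 and 4.37 in STL livers and 4.26, 7.94, 3.69 and 7.65 in control livers. The difference of Slc7a11 therefore rests on 1 probe and 1 spot per array.

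Glutamate-cysteine ligase catalyses the limiting step of glutathione synthesis. Gclc encodes its catalytic subunit, whose normalised signal was 4.20, 5.21, 4.56 and 4.64 in STL 5 to 8, against 4.94, 4.86, 4.84 and 5.29 in control 1 to 4. Its probe lies at chr8:82762574-82762633 on the plus strand of rn4. The groups overlapped through STL 6, while the other STL livers lay below every control array, and the difference was -0.36 (SE 0.23, 95% interval -0.87 to 0.16, limma adjusted p = 0.398). It lay between -0.54 (without STL 6) and -0.21 (without STL 5) when a sample was left out. Gclm encodes the modifier subunit, which raises the activity of the enzyme. Gclm had -1.06, -0.48, -1.82 and -1.56 in STL livers, against -0.59, -0.63, -0.31 and -0.60 in control livers. STL 6 lay among the controls and the other STL livers below all of them. The mean was -1.23 ± 0.59 in STL livers (SD, n = 4) and -0.51 ± 0.17 in control livers (SD, n = 3), which is 1.65-fold lower on the linear scale. The log2 difference of -0.72 (SE 0.29, interval -1.39 to -0.054) had an unadjusted limma p of 0.0372 and an adjusted p of 0.242.

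Gss encodes glutathione synthetase, which adds glycine in the last step. Its normalised signal was 2.35, 2.58, 2.03 and 2.23 in STL livers, against 2.58, 2.57, 2.51 and 2.66 in control livers. STL 6 again matched the controls while the other STL livers lay below them, and the difference was -0.28 (SE 0.14, interval -0.60 to 0.032, limma adjusted p = 0.300). Gsr encodes glutathione reductase, which returns oxidised glutathione to its thiol form. Gsr had 0.18, 0.33, -0.061 and -0.0072 in STL livers, against 0.25, 0.14, 0.26 and 0.82 in control livers. Control 4 stood above all other arrays, and the difference of -0.32 (SE 0.18, interval -0.72 to 0.090) had a limma adjusted p of 0.353. Without control 4 it was -0.12. The Gss and Gsr probes span 1071 and 894 genome bases in rn4, on chromosomes 3 and 16, so each of these 60-base probes crosses an intron and reads spliced RNA.

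Txnrd1 encodes the cytosolic thioredoxin reductase, a selenoenzyme that reduces thioredoxin with NADPH. Its normalised signal was 1.59, 2.15, 1.70 and 1.46 in STL livers, against 2.01, 2.20, 2.19 and 2.58 in control livers. STL 6 lay between the controls and the other STL livers lay below every control array. The mean was 1.73 ± 0.30 in STL livers (SD, n = 4) and 2.29 ± 0.26 in control livers (SD, n = 3). The difference was -0.57 (SE 0.19, interval -0.99 to -0.14) or 1.48-fold, with an unadjusted limma p of 0.0152 and an adjusted p of 0.196. A separate probe for the same transcript, shown because it is an independent reading of it, lies at chr7:23065196-23065255 on the minus strand of rn4.
Txnrd1 other probe: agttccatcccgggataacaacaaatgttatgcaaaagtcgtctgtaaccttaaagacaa
It gave -1.94, -1.05, -2.09 and -1.66 in STL livers, against -1.16, -0.92, -0.95 and -0.89 in control livers, so that the same 3 STL livers were lowest. Fitted as a feature of its own it differed by -0.73 (SE 0.24, interval -1.27 to -0.18, limma adjusted p = 0.202). Both probes of Txnrd1 thus had the same direction and intervals that did not include 0. The brighter probe, which stands for the gene, is placed on only 34 bases of rn4, at chr7:23055528-23055561 on the minus strand. What this does to its reading was not tested.

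Txn1 encodes thioredoxin, the small protein that passes electrons to peroxiredoxins and ribonucleotide reductase. It showed the smallest difference of the set. Its normalised signal was 5.71, 5.66, 5.71 and 5.67 in STL livers, against 5.48, 5.49, 5.74 and 6.18 in control livers, so the STL livers fell inside the range of the controls. The STL livers were close to each other: 99.7% of all genes had a larger SD among them. The value of Txn1 is a mean over 10 spots, where most other probes of the set had 1. The part of this in the small SD was not tested. The difference was -0.12 (SE 0.16, interval -0.48 to 0.25, limma adjusted p = 0.703), and without control 4 its sign turned, to 0.071. The 10 spots of its probe lie on the minus strand of rn4 chromosome 5, between 75921410 and 75922750, across an intron. A further probe on the array carries the opposite strand beside it and shares 1 base of the genome with it. Both are shown because they read opposite strands of the same gene, and capitals in the opposite-strand probe mark the reverse complement of the stop codon, which ends 10 open codons.
Txn1 probe: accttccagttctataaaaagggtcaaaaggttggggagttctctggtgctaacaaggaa
Txn1 opposite-strand probe, chr5:75921351-75921410: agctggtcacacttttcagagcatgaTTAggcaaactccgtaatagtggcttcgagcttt
The opposite-strand probe gave -2.74, -2.86, -2.01 and -2.98 in STL livers, against -3.24, -3.02, -3.02 and -2.99 in control livers. STL 7 was the highest array, and the difference of 0.40 (SE 0.25, interval -0.17 to 0.96, limma adjusted p = 0.405) had an interval that included 0. What RNA gives that signal was not tested, and averaging both probes turned the sign of Txn1, to 0.14.

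Srxn1 encodes sulfiredoxin, which restores peroxiredoxins that have been overoxidised. Its normalised signal was 3.03, 3.62, 2.76 and 2.98 in STL livers, against 3.82, 3.90, 4.25 and 5.38 in control livers. The highest STL liver, again STL 6, lay below the lowest control array, and control 4 stood above all others. The mean was 3.10 ± 0.37 in STL livers (SD, n = 4) and 4.50 ± 0.79 in control livers (SD, n = 3). The difference was -1.40 (SE 0.34, interval -2.18 to -0.62), a signal 2.64-fold lower in STL livers, with an unadjusted limma p of 0.00308 and an adjusted p of 0.173. With 1.07% of all genes at or below this difference, it was the only gene of the set besides Slc7a11 with separate groups. It passed with array weights (-1.20, limma adjusted p = 0.0368), where 2 of the 10 genes were called against 2.84% of all genes in that direction, and lay between -1.72 and -0.96 when a sample was left out.

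Osgin1 encodes a growth inhibitor induced by oxidative stress, and Hmox1 encodes haem oxygenase 1, which degrades haem to biliverdin, iron and carbon monoxide. Osgin1 had 3.57, 3.31, 3.21 and 2.71 in STL livers, against 3.38, 3.50, 3.84 and 2.90 in control livers. The groups overlapped over most of their range, and the difference was -0.19 (SE 0.25, interval -0.77 to 0.38, limma adjusted p = 0.690), with a sign that turned, to 0.028, without control 3. Hmox1 had 1.38, 1.49, 1.07 and 1.26 in STL livers, against 1.59, 1.54, 1.36 and 1.46 in control livers. Its groups overlapped as well, and the difference was -0.16 (SE 0.13, interval -0.45 to 0.13, limma adjusted p = 0.498).

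**Figure D2:**
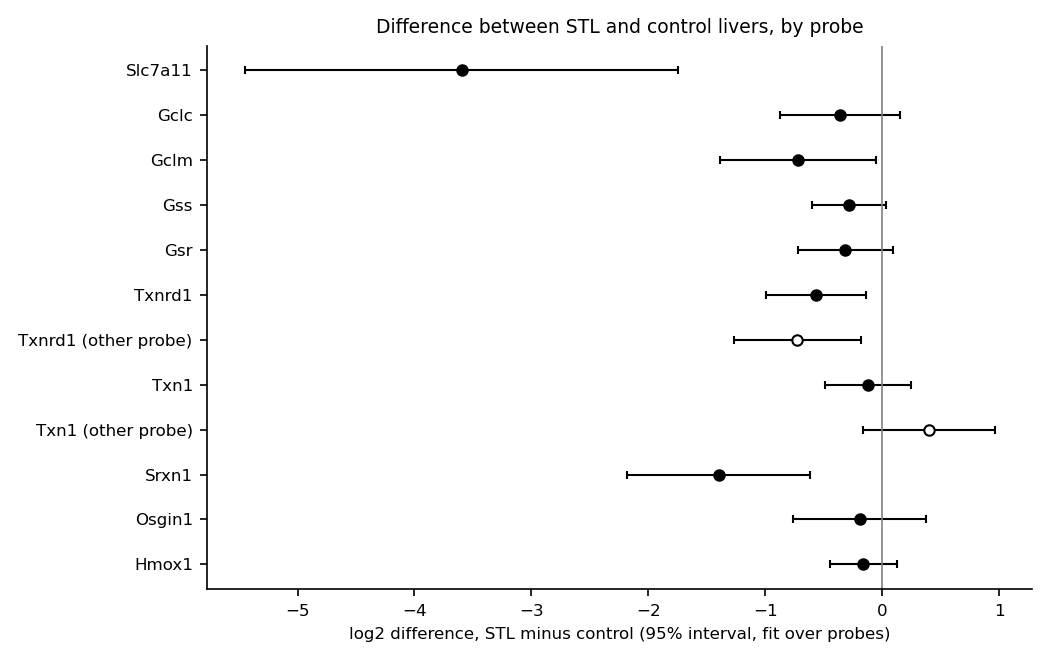
Difference in normalised log2 signal, STL minus control (x axis), with its 95% interval for each probe of the 10 genes that was tested, from limma over all probes, open circles marking other probes of Txnrd1 and Txn1. The interval of Slc7a11 runs from about -5.46 to -1.73 and is the widest, and those of Gclc, Gss, Gsr, Txn1, Osgin1 and Hmox1 include 0.

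STL 6 was the highest of the 4 STL livers for 8 of the 10 genes, all but Txn1 and Osgin1. It lay at or above the averaged control 1 and 2 for 6 of the 10 genes, which were Gclc, Gclm, Gss, Gsr, Txnrd1 and Txn1. Over the repeated probes of the array, STL 6 was also near control 1 and 2, at 2.09 and 2.12 times the spot noise. It differed from the other STL arrays by 2.66 to 3.71 times that noise, and from control 3 and 4 by 3.025 and 4.18 times. The likeness of STL 6 to control 1 and 2 was thus not particular to these genes. By Dixon's test for an outlying sample, 0 of the 10 genes had one among the STL livers: the gap over the range was 0.777 for Slc7a11, under the critical value for 4 samples. For Slc7a11 STL 6 lay 3.44 above the mean of the other STL livers, and for Gclm 0.99 above it. STL 7 was the lowest STL liver for 5 genes. Its array was the dimmest of the 8, with an upper quartile of 304.1 and 54.17% of probes well above background, and the part of this in its rank was not tested. Among the controls, control 4 was the highest of all 7 samples for 7 genes. The mean of the 10 genes, each centred over the samples, was -0.44, 0.23, -0.59 and -0.52 in STL 5 to 8, against 0.28 in the averaged control 1 and 2, 0.37 in control 3 and 0.67 in control 4. STL 6 lay just below the lowest control sample on this mean, and the other STL livers far below it. Among the STL livers Slc7a11 weighs most in this mean: its values ranged over 3.82 there, and those of the next widest gene, Gclm, over 1.335. Among the control samples Srxn1 had the widest range, 1.52, against 0.957 for Slc7a11. The order of the samples on this mean therefore need not hold for the other genes.

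Without STL 6, the STL livers lay below every control sample for 7 of the 10 genes (Slc7a11, Gclc, Gclm, Gss, Gsr, Txnrd1 and Srxn1), against 11% of all genes. STL 6 was the highest STL liver for 8 of the 10 genes, so leaving it out raises this count by construction, and no conclusion is drawn from it. The count was made for no other sample left out. Gsr counts only with control 1 and 2 averaged: STL 5, at 0.18, lay above control 2, at 0.14. Also without STL 6, the count at an unadjusted limma p under 0.05 was 6 of 10, against 8.59% of all genes, and 1 of 10 passed the adjusted threshold, against 0.123%. These counts too rest on leaving out the highest STL liver of most of the genes, and no conclusion is drawn from them. Without control 4 that unadjusted count was 2 of 10, against 5.36% of all genes.

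**Figure D3:**
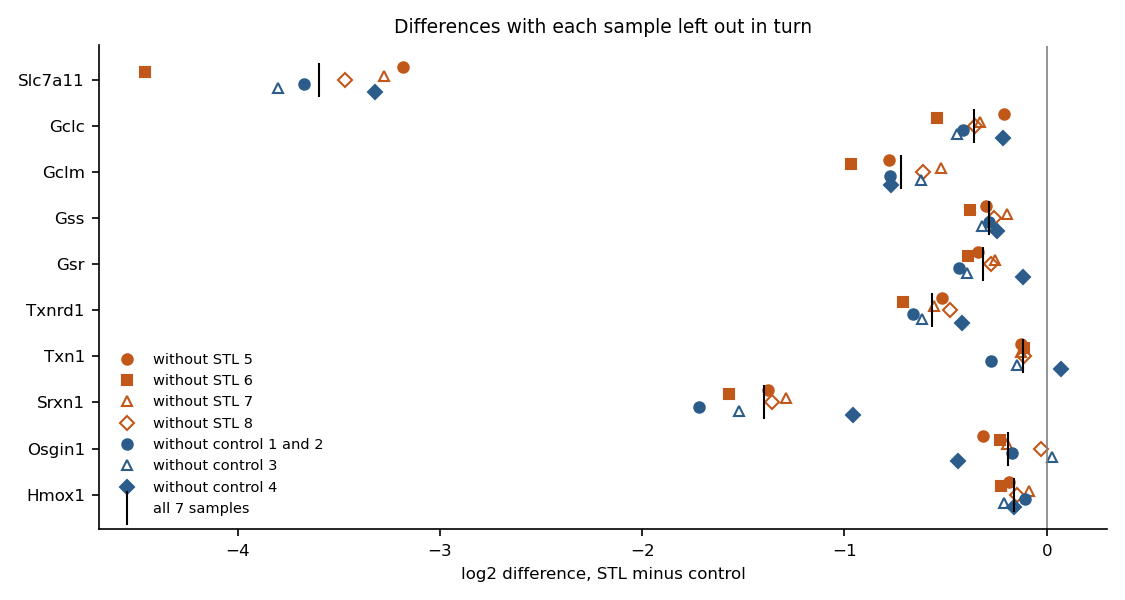
Differences in normalised log2 signal, STL minus control (x axis), of the 10 genes with each sample left out in turn, orange for an STL liver and blue for a control sample, and a black bar for the value from all 7 samples. Slc7a11 is at -4.46 without STL 6, against -3.60 with all samples, and Txn1 (0.071 without control 4) and Osgin1 (0.028 without control 3) are the points above 0.

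Markers of preneoplastic lesions were compared with the 10 genes by liver. The lesion list of 6 genes (Gstp1, Ggt1, Aldh3a1, Anxa2, Akr1b8 and Cdkn3) was lower in STL livers for 6 of 6 genes, with 5 at an unadjusted p under 0.05 (all but Cdkn3), against 7.38% of all genes, and 0 past the adjusted threshold. This list too was chosen with earlier results of these data known. Its mean centred level was -2.01, 0.65, -1.08 and -1.61 in STL 5 to 8, against 0.62 in the averaged control 1 and 2, 1.21 in control 3 and 2.22 in control 4. On this mean STL 6 was again the highest STL liver and control 4 the highest control sample. Cdkn3 did not have that order, with -1.87 and -1.94 in STL 5 and STL 6 and -2.79 in the averaged control 1 and 2. Gstp1, the classical placental-form glutathione transferase of rat liver nodules, lay at 1.39, 5.29, 2.67 and 1.53 in STL livers, against 4.96, 6.05 and 7.08 in the 3 control samples, a difference of -3.31 (limma adjusted p = 0.179). Ggt1, the gamma-glutamyl transferase that cleaves extracellular glutathione, differed by -2.20 (limma adjusted p = 0.208). Across the 7 samples, the Pearson r with Slc7a11 was 0.95 for Gstp1 and 0.92 for Ggt1, which describes the 2 groups as well as the variation within them. The part of lesion content in the differences of the 10 genes was not tested.

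**Figure D4:**
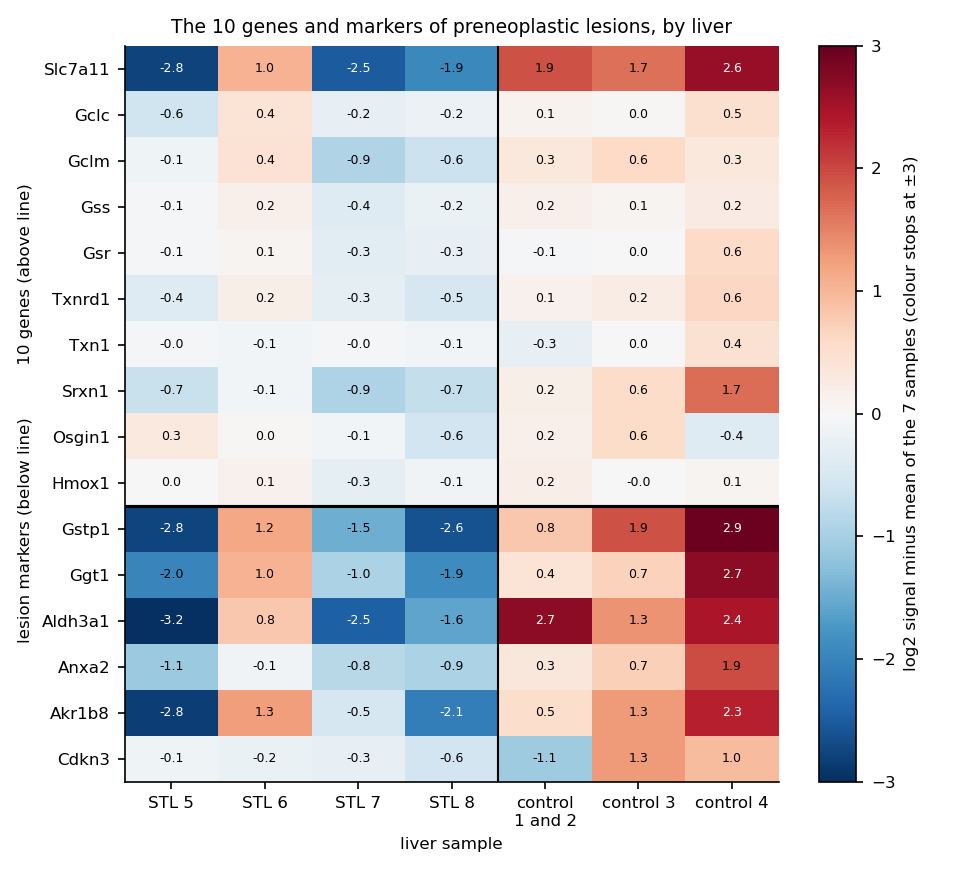
Normalised log2 signal of the 10 genes (above the line) and of 6 lesion markers (below it) in each of the 7 samples, minus the gene's mean over the samples, blue below it and red above it, with STL livers left of control samples. Slc7a11, Gstp1, Ggt1 and Aldh3a1 are blue in STL 5, 7 and 8 and red in STL 6 and in the 3 control samples.

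Hepatocyte markers were higher in STL livers and most genes of each other cell list were lower, where 42.0% of all genes were lower. Of 8 hepatocyte markers, 8 were higher in STL livers, with Alb at 0.41 and 2 at an unadjusted p under 0.05, against 11.5% of all genes. Of 10 Kupffer cell and macrophage markers 8 were lower, with a median of -0.14 and 1 at that p, against 7.38% of all genes. Lower in STL livers were also 6 of 7 cholangiocyte and progenitor markers (4 at that p), 6 of 7 tested stellate cell markers (3) and 5 of 5 cell division genes (5). The mean centred level of the cholangiocyte list was -1.31 to 0.23 in STL livers and 0.15 to 1.60 in control samples, and that of the cell division list was -1.11 to -0.36 in STL livers and -0.66 to 1.73 in control samples. None of these lists held a gene past the adjusted threshold, and their part in the differences of the 10 genes was not tested.

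The sequence just upstream of the transcription start was read for 8 of the 10 genes from RefSeq (GRCr8), 250 bases before and 50 after each start, for 9 windows. The core of the antioxidant response element (TGACNNNGC) the related TGANTCAGC, and TGATGCAA, an amino acid response element known to be bound by ATF4, were looked for on both strands. The core was found in 12.1% of 33469 promoter windows, TGANTCAGC in 1.11% and TGATGCAA in 0.795%. Elements farther from the start, and genes without a window, were not read, so the lack of a match here does not mean that a gene has no such element. The windows of 3 of the genes held a match, and they are shown as 250 bases before and 20 after the start, with the match in capitals.
Srxn1, chr3:161064562-161064831, plus strand: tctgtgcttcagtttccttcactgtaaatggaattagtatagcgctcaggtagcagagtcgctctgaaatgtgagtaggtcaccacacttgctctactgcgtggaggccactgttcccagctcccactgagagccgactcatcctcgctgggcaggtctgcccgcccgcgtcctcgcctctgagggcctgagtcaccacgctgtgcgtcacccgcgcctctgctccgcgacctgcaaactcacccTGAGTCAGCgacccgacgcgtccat
Gclm, chr2:213031885-213032154, plus strand: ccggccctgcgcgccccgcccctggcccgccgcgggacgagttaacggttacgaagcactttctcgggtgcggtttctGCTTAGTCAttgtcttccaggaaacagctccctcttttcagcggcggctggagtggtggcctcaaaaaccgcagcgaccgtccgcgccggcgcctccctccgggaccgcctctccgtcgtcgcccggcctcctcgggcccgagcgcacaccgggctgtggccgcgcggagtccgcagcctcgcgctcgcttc
Txnrd1, chr7:22755885-22756154, minus strand: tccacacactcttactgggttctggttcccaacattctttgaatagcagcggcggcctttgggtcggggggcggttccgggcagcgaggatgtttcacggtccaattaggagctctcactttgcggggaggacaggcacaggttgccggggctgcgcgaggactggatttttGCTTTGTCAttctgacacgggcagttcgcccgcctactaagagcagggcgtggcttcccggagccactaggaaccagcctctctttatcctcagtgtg
The match in Srxn1 is TGANTCAGC on the gene's own strand, from position -5 to position 4. The matches in Gclm and Txnrd1 are TGACNNNGC on the opposite strand, at positions -172 to -164 in Gclm and -78 to -70 in Txnrd1, counted from the start. These are matches of letters in the reference, and the arrays do not measure binding.

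The pathways around the 10 genes were described by 7 lists of 71 genes, 69 of which were tested. Of these 35 were lower in STL livers and 34 higher, with 13 and 7 at an unadjusted limma p under 0.05, and 0 past the adjusted threshold. The background shares at that unadjusted p were 7.38% lower and 11.5% higher.

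Among 8 NRF2 regulators, 5 were lower and 3 higher, with a median of -0.056. Nfe2l2 differed by -0.084 and Keap1, its inhibitor, by -0.085 (limma adjusted p = 0.744 and 0.706). The small MAF genes differed in direction: Maff by -1.09, Mafk by -0.18 and Mafg by 0.29 (limma adjusted p = 0.228, 0.534 and 0.212). The 12 other NRF2 targets had a median of -0.50, 11 of 12 were lower and 5 reached the unadjusted threshold. They included enzymes of the pentose phosphate pathway, which makes NADPH. Pgd lay at 0.46, 0.88, 0.25 and 0.20 in STL livers, against 1.08, 1.56 and 1.69 in the 3 control samples, a difference of -0.998 (adjusted p = 0.166). Tkt and Taldo1 differed by -0.55 and -0.48, and Ugdh, which makes UDP-glucuronic acid, by -0.51.

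The cystine, glutamate and glutathione breakdown genes had 13 of 15 tested (all but Slc1a1 and Ggt6) and a median of 0.27, with 4 lower and 9 higher. Ggct, which acts on gamma-glutamyl amino acids, differed by 0.55 (limma adjusted p = 0.179), the glutamate transporter gene Slc1a2 by 0.75 and Cbs, an enzyme of cysteine synthesis from homocysteine, by 1.03 (adjusted p = 0.242). Ggt1, also a lesion marker, had the lowest difference of the list. Of 10 glutathione peroxidases and glutaredoxins 5 were lower and 5 higher. Gpx2, a peroxidase best known in the gut, lay at 2.15, 0.43, -1.51 and -2.61 in STL livers, against 1.95, 2.93 and 3.86 in the 3 control samples, a difference of -3.30 (adjusted p = 0.184). STL 5, the highest STL liver for Gpx2, was the lowest for Slc7a11. Gpx3, Glrx5 and Gpx7 differed by -1.35, 0.42 and -0.41.

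The 14 other genes of the thioredoxin system and peroxiredoxins were nearly balanced, with 8 lower, 6 higher and a median of -0.018. The sestrin gene Sesn1 differed by -0.62 (limma adjusted p = 0.229), and Txnrd3, Prdx5 and Prdx1 by -0.48, 0.34 and 0.19. Of 8 haem and iron genes beside Hmox1, 6 were higher. Alas1, the limiting enzyme of haem synthesis, lay at 6.77, 6.85, 6.76 and 6.69 in STL livers, against 5.72, 5.53 and 6.24 in the 3 control samples. No STL liver overlapped the controls, and the difference was 0.94 (unadjusted p = 0.000423, adjusted p = 0.161). The iron exporter gene Slc40a1 differed by -0.55, Blvrb by 0.43 and Ftl1 by 0.35. The 4 other antioxidant enzymes, Cat, Sod1, Sod2 and Sod3, were all higher, by 0.11 to 0.24, and 0 reached the unadjusted threshold.

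**Figure D5:**
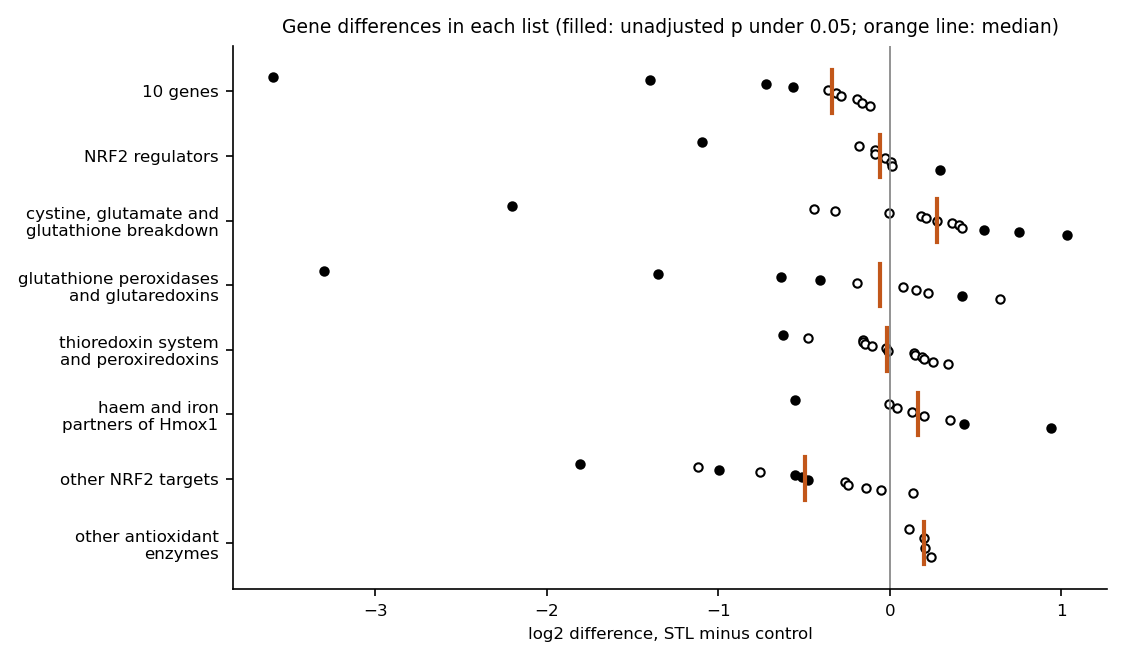
Difference in normalised log2 signal, STL minus control (x axis), of each gene of the 10 and of the 7 pathway lists, filled where the unadjusted limma p was under 0.05, with an orange line at the median of the list. The medians run from -0.50 for other NRF2 targets, through -0.34 for the 10 genes, to 0.27 for cystine, glutamate and glutathione breakdown.

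The genes whose signals were most like that of Slc7a11 over the 7 samples had Pearson r of 0.995 to 0.987. They were a transcript known here only by its Ensembl identifier, LOC102552087, the neurofilament gene Nefm, the vesicle transport gene Arf4 and Pcp4. LOC102552087 lay at -6.99, -1.66, -6.62 and -6.91 in STL livers, against -0.97, -1.21 and 0.47 in the 3 control samples. Nefm lay at -6.49, -4.28, -6.20 and -6.32 in STL livers, against -3.74, -3.47 and -3.28 in those samples. In both, STL 6 was the STL liver nearest to the controls. LOC102552087, Nefm and Pcp4 were well above background on 4 control arrays and only 1 STL array each, so their low STL values are at the floor of the measurement and their r rests on it. Of the set, the most like were Txnrd1 with an r of 0.93 and Gss and Srxn1 with 0.88, and the least like were Txn1 with 0.31 and Osgin1 with 0.14. These r describe 7 points, and the 2 groups account for part of each.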

How the data were processed

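Total RNA of 8 livers was labelled with Cy3, per the labels' protocols. The deposited scanner files hold spot intensity, which the authors extracted with Agilent Feature Extraction (11.5.1.1 per the file headers, 10.7 per the submitters' processing notes). All arrays had 1 slide and 1 scan time. The authors' value table holds the processed intensity times a constant per array.

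The 10 genes and all lists were chosen with earlier results of these data known. Flagged spots were left out, the brightest probe stood for a gene, and a gene was tested where that probe was well above background on 4 or more of the 8 arrays (21871 of 36181 genes, all 10 genes among them). Names came from GRCr8 RefSeq tables and probe positions from the files (rn4). Control 1 and 2 were averaged, since their ratio to spot noise was under 1.5. limma 3.58.1 (R 4.3.3; lmFit, eBayes with trend) was used, two-sided, with Benjamini-Hochberg adjustment over all genes and a threshold of 0.05. From each list at most 4 genes with the smallest p are named, plus Gstp1, Ggt1 and Alb; Nfe2l2 was named after its value was seen. In 2 of the lists, 1 gene is not reported here and is left out of the counts. The fit was checked on simulated data. The closing part gives 19 alternatives. The number of arrays limits the precision.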

Additional observations from a re-analysis of the deposited data

How the results depend on the processing

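Of 190 values of the 10 genes under 19 alternatives, 187 were lower in STL livers, and the median of the 10 genes stayed between -0.47 and -0.29. The sign turned for Txn1 with the mean of both probes (0.14) and without control 4, where leaving out a control sample gave -0.28, -0.15 (without control 3) and 0.071, and for Osgin1, which lay between -0.44 (without control 4) and 0.028 (without control 3) when a sample was left out. Array weights called 2 of the 10 genes, Slc7a11 (-3.33) and Srxn1 (-1.20), and leaving out a sample called 0 to 1. The number of genes called on the array was 1 in the main comparison, 21 with each of the 8 arrays as a sample, 1537 with array weights and 1 to 205 when a sample was left out: 205 without the averaged control 1 and 2, 45 without STL 6 and 3 without control 3. The cause was not tested. With array weights, control 3 and STL 8 weighed 3.18 and 2.12 and the other samples 0.41 to 0.93. Slc7a11 was -2.19 with normexp background correction and ranged from -4.46 to -1.87, this last value with both probes averaged, of which 1 was never above background. No paired analysis was possible because the groups share no replicate numbers. A block on slide position, which does not pair rats, left Slc7a11 at -3.56 (limma adjusted p = 0.150) and 0 of the 10 genes called.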
